A study of Mus musculus with 3 samples.

Results

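The genes described here encode 10 heat shock chaperones: *Hspa1a*, *Hspa1b* and *Hspa8* of the Hsp70 class, *Hsph1* of the Hsp110 class, the J proteins *Dnajb1* and *Dnaja1*, *Hsp90aa1* and *Hsp90ab1* of the Hsp90 class, and the mitochondrial pair *Hspd1* and *Hspe1*. They are 10 of the 32285 genes in the count matrices, and they were chosen by measured values, the ratios of *sGsn-/-* to WT counts in cDC1s, in which several of them were low. That ratio is therefore given below as a description. Conventional dendritic cells and their precursors were sorted from MCA205 LA-OVA fibrosarcomas and measured by scRNAseq in 3 libraries, 1 for each genotype. The WT mice were C57BL/6J, the *sGsn-/-* mice lacked secreted gelsolin, an actin-binding protein of plasma, and the *sGsn-/- Clec9a-/-* mice lacked in addition DNGR-1, the receptor for exposed F-actin that *Clec9a* encodes. Mice of both sexes carried tumours on both flanks and were housed together beforehand, and tumours were taken at day 5. Tumours were pooled by genotype, digested with collagenase IV and DNase I on a warmed shaker and enriched on Percoll, and stained by genotype. From live CD45+ lineage-negative CD11c+ MHCII+ CD88- cells 3 populations were sorted, cDC1s by XCR1, cDC2s by Sirpa and precursors by CD135 with CD43, the genotypes in parallel on 3 instruments, and chosen amounts of each were put together before loading. The make-up of a library thus follows the sort and the mixing, and genotype, pool, sort and library cannot be told apart.

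Chaperones of the Hsp70 class bind unfolded stretches of other proteins and let them go in a cycle driven by ATP, in which J proteins bring the substrate and stimulate hydrolysis and Hsp110 proteins exchange the nucleotide. Hsp90 proteins act later, on kinases, receptors and other clients that are nearly folded, and the Hsp60 and Hsp10 proteins form a folding chamber in mitochondria. *Hspa1a*, *Hspa1b*, *Hsph1* and *Dnajb1* are textbook targets of the heat shock factor HSF1 and are strongly induced by heat and other stress that unfolds proteins, whereas *Hspa8* and *Hsp90ab1* are also made in abundance without stress.

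*Clec9a*, the gene lost in *sGsn-/- Clec9a-/-* mice, was checked first. It had 5502 UMIs in WT cDC1s (168 CPM, the UMIs of a gene scaled by all UMIs of the population; 95% counting interval 164 to 173), 3970 UMIs in *sGsn-/-* cDC1s (168 CPM; 163 to 174) and 2 UMIs in *sGsn-/- Clec9a-/-* cDC1s (0.0931 CPM; 0.0113 to 0.336). The counts of *Clec9a* thus follow the label of the *sGsn-/- Clec9a-/-* library. They cannot tell WT from *sGsn-/-*, which stood at the same level.

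The chaperones were followed in 4 populations. The cDC1s are the 2316, 1712 and 1778 cells (WT, *sGsn-/-* and *sGsn-/- Clec9a-/-*) of the deposited table, and barcodes outside that table were gated by at least 2 UMIs of *Cd209a*, *C1qa* or *Ncr1* and at most 1 UMI of each of the others. The *Cd209a* gate held 2921, 1249 and 1664 barcodes in the same order of libraries. The *C1qa* gate held 1782, 687 and 987 barcodes. The *Ncr1* gate held 705, 1042 and 783 barcodes, although the sort was set against NK1.1. The libraries shared few cell barcodes, 26 between WT and *sGsn-/-*, 28 between WT and *sGsn-/- Clec9a-/-* and 27 between the knockouts, of which 2, 2 and 3 were cDC1s.

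Marker lists were read in each population before the chaperones. The 7 cDC1 markers summed to 3703, 3574 and 3672 CPM in cDC1s (WT, *sGsn-/-*, *sGsn-/- Clec9a-/-*), with *Naaa* the most abundant and none at 0. The 7 cDC2 markers summed to 1858.5, 1836 and 1833 CPM in the *Cd209a* gate against 60.9, 59.2 and 58.8 CPM in cDC1s, with *Cd209a* the most abundant in each; without *Cd209a*, the gate gene, the sums were 1132, 1115 and 1088 CPM against 35.4, 32.98 and 35.95 CPM. In the *C1qa* gate the 8 macrophage or monocyte markers summed to 13914, 13517 and 13166 CPM (11421, 11125 and 10982 CPM without *C1qa*), with *Lyz2* the most abundant, and its cDC2 markers still summed to 858, 922 and 858 CPM. In the *Ncr1* gate the 8 NK cell markers summed to 7119, 7529 and 8061 CPM (6708, 7120 and 7596 CPM without *Ncr1*), with *Gzma* the most abundant. The *Cd209a* gate also held macrophage or monocyte markers at 1245.5, 1069 and 1729.98 CPM, mostly *Lyz2* (979, 849 and 1443 CPM), and T cell markers at 7.80, 34.6 and 16.4 CPM. Each population thus carries the markers sought, and the gates, which rest on 1 gene each, hold markers of other types too. Markers of fibrosarcoma or stroma (5 genes) stayed at or below 3.07 CPM in sum in every gate and library, and at 2.08, 2.12 and 1.40 CPM in cDC1s.

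In cDC1s the inducible Hsp70 genes were highest in the WT library and lowest in the *sGsn-/- Clec9a-/-* library. *Hspa1a* stood at 1241 CPM (95% counting interval 1229 to 1253), 693 CPM (682 to 703) and 542 CPM (532 to 552) in the order WT, *sGsn-/-*, *sGsn-/- Clec9a-/-*. *Hspa1b* stood at 511 CPM (503 to 519), 247 CPM (241 to 254) and 200.2 CPM (194 to 206). For both genes the 3 intervals lie apart, but they hold counting error alone, and with 1 library for each genotype the spread between pools is unknown. *Hspa8*, the constitutive member of the class, stood at 3453, 3021 and 3071 CPM, so that its lowest library was *sGsn-/-*.

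The partners of Hsp70 were also highest in WT cDC1s. *Hsph1*, the nucleotide exchange factor, stood at 112, 67.2 and 56.1 CPM in the same order of libraries. *Dnajb1*, an inducible J protein, stood at 223, 135 and 125 CPM. *Dnaja1*, a J protein of the cytosol, stood at 994, 724 and 687 CPM. All 3 genes have the order WT, *sGsn-/-*, *sGsn-/- Clec9a-/-*, with a wider step between the first and the second library than between the second and the third.

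The Hsp90 and mitochondrial chaperones kept that order. *Hsp90aa1*, the inducible Hsp90 gene, stood at 1099.9, 855 and 799 CPM. *Hsp90ab1*, its constitutive relative, stood at 2322, 2017 and 1843 CPM. The mitochondrial *Hspd1* stood at 205, 167 and 133 CPM, and its partner *Hspe1* at 462, 405 and 362 CPM.

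The ratio of *sGsn-/-* to WT in cDC1s, which chose the genes, was below 1 for all 10. As log2 it was −0.72 for *Dnajb1* (95% counting interval −0.78 to −0.66), −0.46 for *Dnaja1* (−0.48 to −0.43), −0.36 for *Hsp90aa1*, −0.30 for *Hspd1*, −0.20 for *Hsp90ab1*, and −0.19 for each of *Hspa8* and *Hspe1*. *Hspa1a* (1.79-fold), *Hspa1b* (2.07-fold), *Hsph1* (1.67-fold) and *Dnajb1* (1.65-fold) were at least 1.5-fold lower in *sGsn-/-*, while 8 of the 2520 genes with at least 50 CPM in either library were (0.317%). *Dnajb1* lies just inside this fold and *Dnaja1*, at 1.37-fold, just outside. The median log2 ratio was −0.41 over the 10 genes and 0.01 over the 2520, and nothing is read from either since this ratio was used in the choice.

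**Figure D1:**
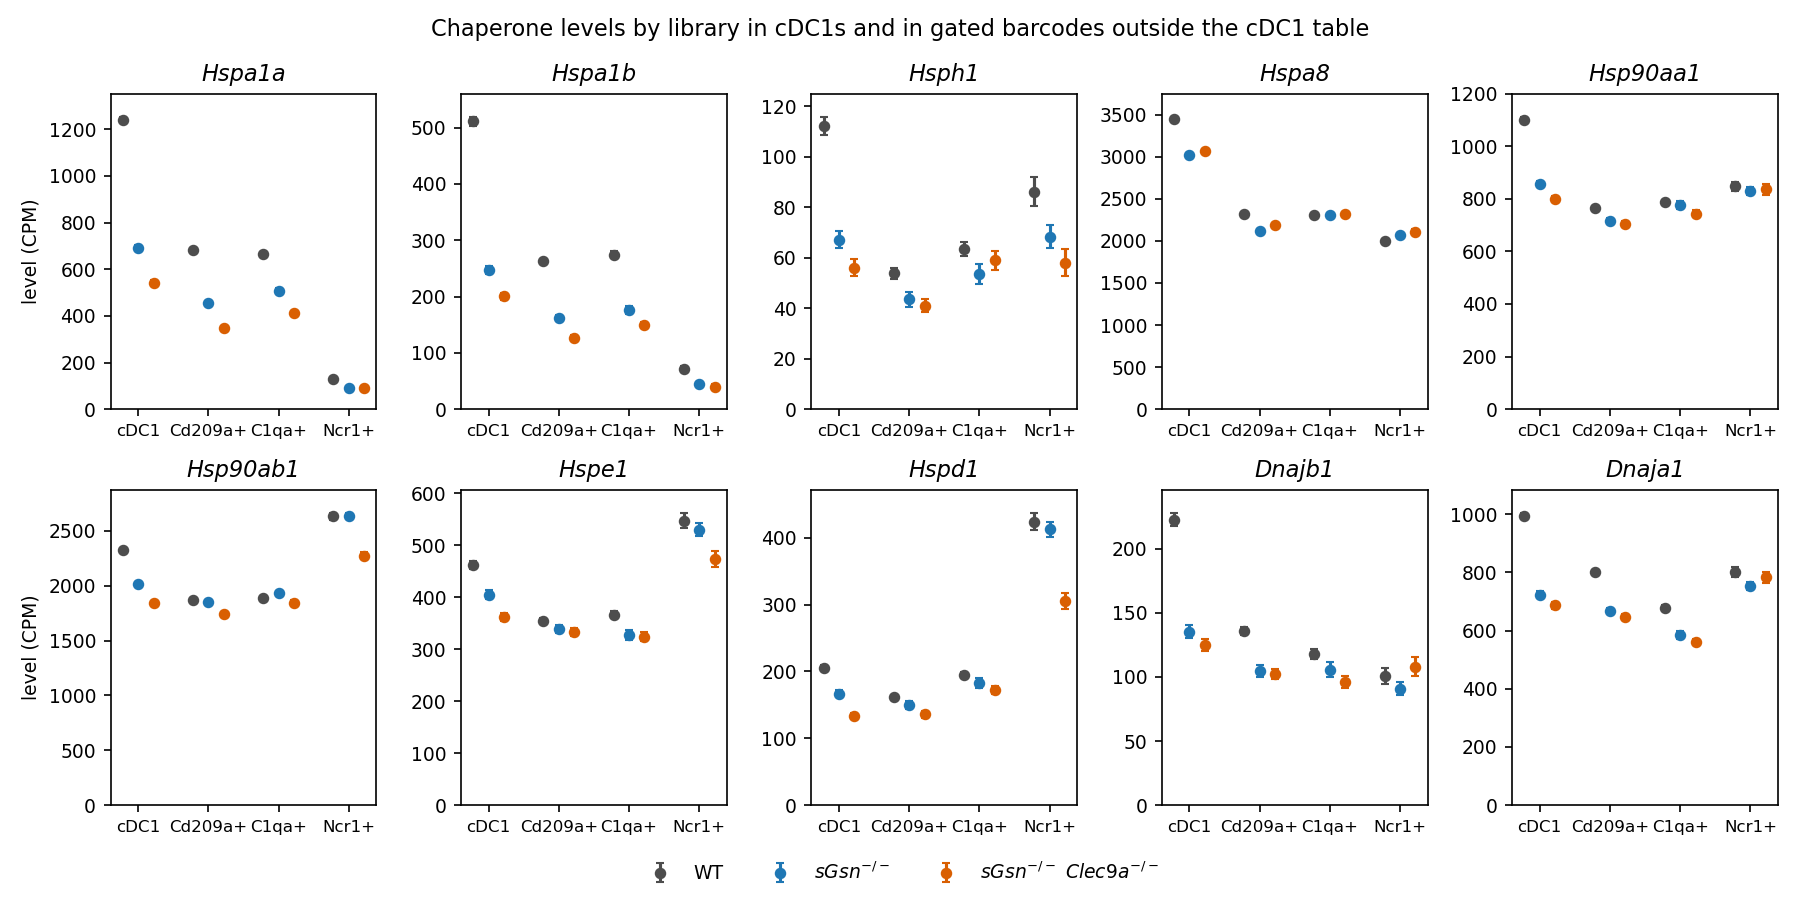
Level of each chaperone in the 3 libraries and 4 populations. The y axis gives CPM from 0 and the x axis the population (cDC1s and the *Cd209a*, *C1qa* and *Ncr1* gates); points are libraries, bars are exact 95% Poisson intervals. *Hspa1a* in cDC1s runs from 1241 CPM in WT to 542 CPM in *sGsn-/- Clec9a-/-*.

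Outside the cDC1 table, the lower counts of the inducible Hsp70 genes in the *sGsn-/-* library were seen in every gate. In the *Cd209a* gate *Hspa1a* stood at 682, 456 and 346 CPM (WT, *sGsn-/-*, *sGsn-/- Clec9a-/-*). In the *C1qa* gate it stood at 665, 506 and 412 CPM. In the *Ncr1* gate *Hspa1a* stood at 129, 91.2 and 92.8 CPM. WT is thus the highest of the 3 libraries in each gate, and the knockouts differ from each other in the *Cd209a* and *C1qa* gates but hardly in the *Ncr1* gate.

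*Hspa1b* was highest in WT as well. It stood at 263, 161 and 127 CPM in the *Cd209a* gate. In the *C1qa* gate *Hspa1b* stood at 274, 176 and 149 CPM, and in the *Ncr1* gate at 70.9, 44.0 and 39.4 CPM. The WT library was the highest and the *sGsn-/- Clec9a-/-* library the lowest in all 3 gates.

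As log2 ratios of *sGsn-/-* to WT, *Hspa1a* gave −0.58 (95% counting interval −0.61 to −0.55) in the *Cd209a* gate, −0.39 (−0.43 to −0.35) in the *C1qa* gate and −0.50 (−0.62 to −0.39) in the *Ncr1* gate, beside −0.84 (−0.87 to −0.82) in cDC1s. *Hspa1b* gave −0.70 (−0.76 to −0.65), −0.64 (−0.71 to −0.57) and −0.69 (−0.85 to −0.53), beside −1.05 (−1.09 to −1.01) in cDC1s. Both genes were thus lower in the *sGsn-/-* library in every gate; the cDC1 values chose the genes and are not ranked against the gates. The *Ncr1* ratios rest on few UMIs and moved most: *Hspa1a* was −1.13 and *Hspa1b* −1.23 without barcodes that held *Mki67*, *Top2a* or *Birc5*, and −0.12 and −0.37 with a gate of 1 UMI and none of the other gate genes. With that gate *Hspa1a* in the *C1qa* population was −0.60.

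*Hspa1b* was the 1 chaperone of 10 that was at least 1.5-fold lower in the *Cd209a* gate (1.63-fold), where 5 of 2696 genes were (0.185%). It was also the only 1 in the *C1qa* gate (1.56-fold; 8 of 2671 genes, 0.300%) and in the *Ncr1* gate (1.61-fold; 11 of 2692 genes, 0.409%). *Hspa1a* lay just outside in the *Cd209a* gate at 1.49-fold. Which of the pair passed depended on the setting. *Hspa1a* passed with *Hspa1b* in the *Cd209a* gate in 5 of 6 alternatives, all but that without the highest doublet scores. In the *C1qa* gate no chaperone passed after thinning (*Hspa1b* −0.52) or without the highest doublet scores, and both genes did with a gate of 1 UMI. In the *Ncr1* gate none passed with a gate of 1 UMI, *Hspa1a* alone did with a gate of at least 5 UMIs, and both did after thinning, without the highest doublet scores and without barcodes that held cycling genes. In that last setting the count over the 3 gates was 5 in place of 3.

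Within each gate the other chaperones lay nearer to 0 than *Hspa1a* and *Hspa1b* in the main setting. In the *Ncr1* gate this changed with a gate of 1 UMI, where *Hspa1a* was −0.12. *Hsph1* ran there from −0.42 to −0.25 over the 6 alternatives. *Hsph1* was 53.8, 43.5 and 41.1 CPM in the *Cd209a* gate, a log2 ratio of *sGsn-/-* to WT of −0.31, and −0.24 and −0.33 in the *C1qa* and *Ncr1* gates. *Dnajb1* gave −0.38, −0.16 and −0.15 in the *Cd209a*, *C1qa* and *Ncr1* gates. *Dnaja1* gave −0.26, −0.22 and −0.09. These 3 genes were below 0 in each gate and in cDC1s, and closest to 0 in a gate other than *Cd209a* in each case.

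*Hspa8* gave −0.13 in the *Cd209a* gate, −0.0001 in the *C1qa* gate and 0.05 in the *Ncr1* gate. *Hsp90aa1* gave −0.10, −0.02 and −0.03, and *Hsp90ab1* gave −0.02, 0.03 and 0.002. *Hspd1* gave −0.11, −0.09 and −0.04 and *Hspe1* −0.06, −0.16 and −0.05. All 10 chaperones were below 0 in the *Cd209a* gate, 9 in the *C1qa* gate and 8 in the *Ncr1* gate, beside 1066 of 2696, 1314 of 2671 and 1315 of 2692 over all genes, with medians of −0.20, −0.16 and −0.07 beside 0.02, 0.002 and 0.003. Values this near 0 turned sign under some alternatives: *Hsp90ab1* was 0.01 in the *Cd209a* gate after thinning, *Hspa8* 0.04 and *Hsp90aa1* 0.03 in the *C1qa* gate without the highest doublet scores, *Hspd1* 0.02 there after thinning, and *Hspa8* −0.06 and *Hspe1* 0.07 in the *Ncr1* gate without barcodes that held cycling genes.

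**Figure D2:**
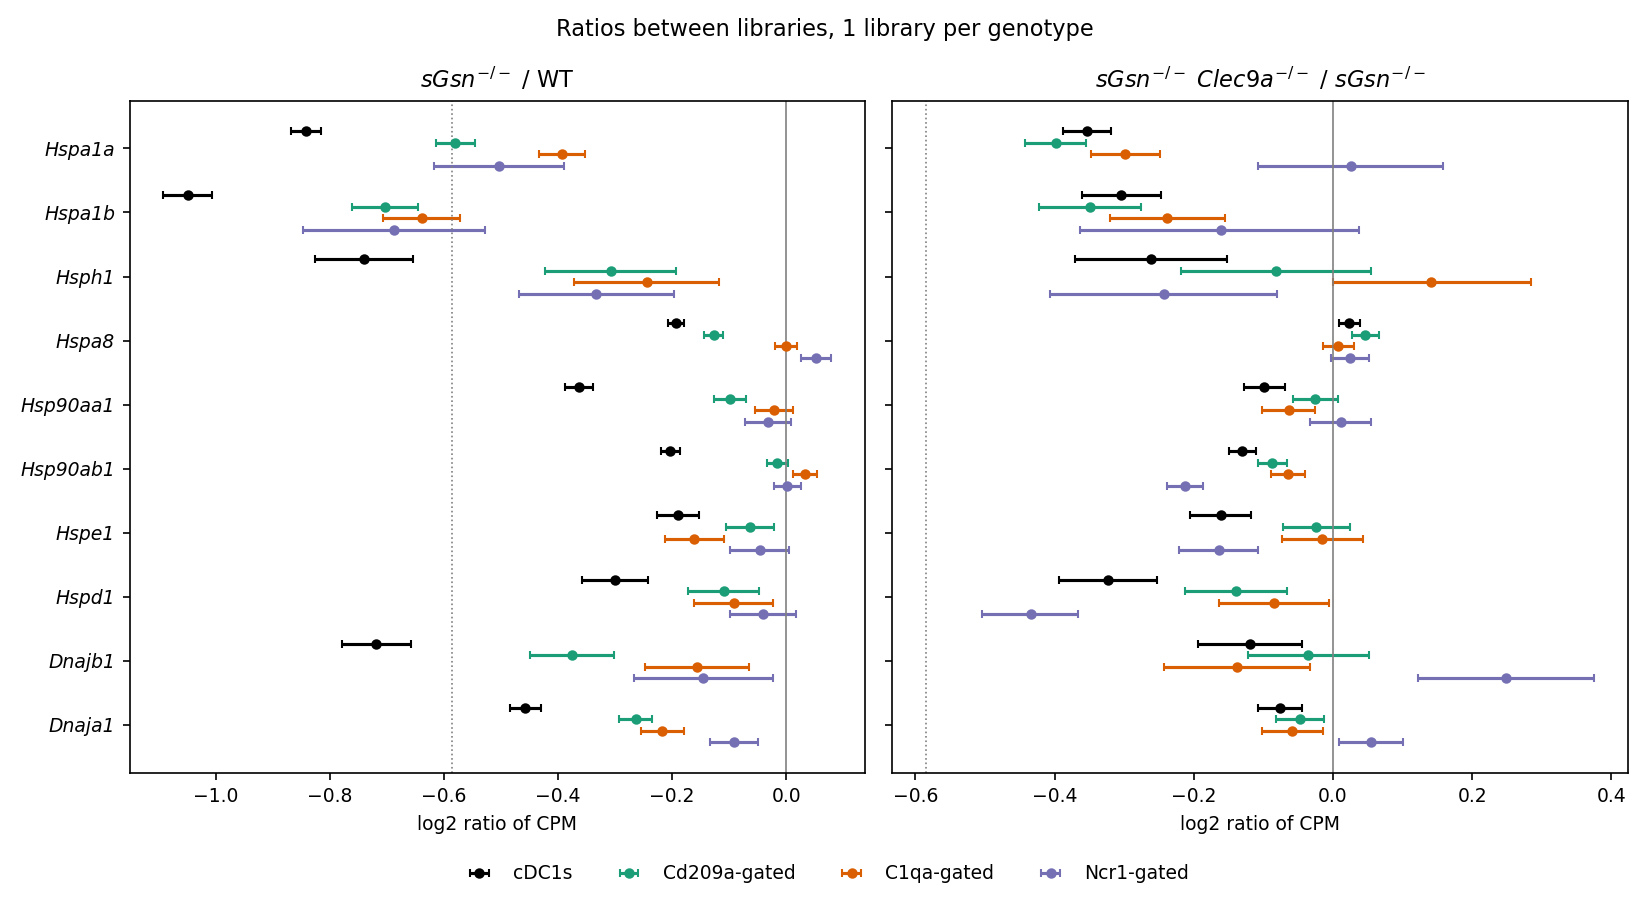
Ratios between libraries for each chaperone in the 4 populations. The x axis gives the log2 ratio of CPM, left for *sGsn-/-* to WT and right for *sGsn-/- Clec9a-/-* to *sGsn-/-*; points are the ratios, bars are exact 95% counting intervals and the dotted line marks 1.5-fold lower. *Hspa1b* runs from −1.05 in cDC1s to −0.64 in the *C1qa* gate on the left.

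The step from *sGsn-/-* to *sGsn-/- Clec9a-/-*, a comparison that shares the *sGsn-/-* library with the first, was smaller in cDC1s for every gene but *Hspd1*. Without cells above the median mitochondrial share it was larger than the first for *Hspe1* (−0.31 against −0.14) and *Hsp90ab1* (−0.22 against −0.19) too. In cDC1s the log2 ratio was −0.35 for *Hspa1a* (−0.39 to −0.32), −0.30 for *Hspa1b* (−0.36 to −0.25) and −0.26 for *Hsph1*. It was −0.32 for *Hspd1* (−0.39 to −0.25), −0.16 for *Hspe1*, −0.13 for *Hsp90ab1*, −0.12 for *Dnajb1*, −0.10 for *Hsp90aa1*, −0.08 for *Dnaja1* and 0.02 for *Hspa8*. None of the 10 was at least 1.5-fold lower, while 25 of 2466 genes were (1.01%), and 9 of 10 were below 0, as were 1784 of the 2466 genes, with medians of −0.15 and −0.07. *Dnajb1* turned to 0.03 when only cells with *Xist* and no Y-linked UMIs were used, where *Hspa1b* was −0.16. In cells with Y-linked UMIs and no *Xist*, *Dnajb1* was −0.37, *Hspa1b* −0.51, *Hspd1* −0.16 and *Hspe1* −0.04.

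In the *Cd209a* gate *Hspa1a* gave −0.40 and *Hspa1b* −0.35 for the same step, and in the *C1qa* gate −0.30 and −0.24. In the *Ncr1* gate *Hspa1a* gave 0.03 (−0.11 to 0.16) and *Hspa1b* −0.16 (−0.36 to 0.04), both with intervals that hold 0. These *Ncr1* values turned sign with the gate or the cells kept, from −0.29 to 0.71 for *Hspa1a* and from −0.49 to 0.42 for *Hspa1b*. With a gate of at least 5 UMIs the *Cd209a* values were −0.22 and −0.07, and with a gate of 1 UMI the *C1qa* values were −0.18 and −0.02.

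Among the other chaperones *Hspd1* had the largest step in the *Ncr1* gate, from 412 to 305 CPM (log2 ratio −0.43; −0.50 to −0.37). *Dnajb1* went the other way there, from 90.8 to 108 CPM (0.25), and *Hsph1* was −0.24 in the *Ncr1* gate but 0.14 in the *C1qa* gate. No chaperone was at least 1.5-fold lower in any gate, beside 16 of 2689 genes in the *Cd209a* gate (0.595%), 15 of 2657 in the *C1qa* gate (0.565%) and 26 of 2675 in the *Ncr1* gate (0.972%). Of the 9 chaperones with at least 50 CPM in either library 8 were below 0 in the *Cd209a* gate, where *Hsph1* was under that level, and 4 of 9 were in the *Ncr1* gate, where *Hspa1b* was. In the *C1qa* gate 8 of 10 were below 0. Over all genes 1812 of 2689 were below 0 in the *Cd209a* gate, 1594 of 2657 in the *C1qa* gate and 1761 of 2675 in the *Ncr1* gate. The medians of −0.05, −0.06 and 0.01 in the *Cd209a*, *C1qa* and *Ncr1* gates stand beside −0.06, −0.03 and −0.06 over all genes, so the medians of the chaperones lie near those of all genes in this step. The count in the *Cd209a* gate rests on values near 0. With TMM factors *Hspe1* (0.05), *Hsp90aa1* (0.05), *Dnajb1* (0.04) and *Dnaja1* (0.02) were above 0 there, which leaves 4 of 9 below, and in the *C1qa* gate *Hspe1* was 0.09 after thinning.

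Depth, mitochondrial share and markers of other cells also differed between libraries. The median UMIs in cDC1s were 14092, 14150 and 12231 and the median mitochondrial shares 1.57%, 1.65% and 1.95% (WT, *sGsn-/-*, *sGsn-/- Clec9a-/-*). In cDC1s the macrophage or monocyte list summed to 911, 756 and 871 CPM, of which *Lyz2* was 832, 715 and 815 CPM and the other 7 genes 79.0, 41.3 and 56.1 CPM, with none at 0. The NK cell list summed to 179, 221 and 174 CPM in cDC1s, with *Klrk1* the most abundant, the other 7 genes at 13.1, 50.2 and 20.3 CPM and none at 0, the 4 T cell markers to 2.05, 3.44 and 1.82 CPM, and the 3 cycling markers to 18.2, 21.2 and 16.8 CPM. The part of these in the chaperone ratios was not tested. In cDC1s below the median mitochondrial share *Hspa1a* and *Hspa1b* kept their direction, as they did without the cDC1s that held at least 2 UMIs of *C1qa*, *Cd209a* or *Ncr1*.

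In the gates the median mitochondrial shares were 1.59%, 1.79% and 2.02% (*Cd209a*), 1.74%, 1.84% and 2.10% (*C1qa*) and 1.85%, 1.92% and 2.30% (*Ncr1*), and so rose in the order WT, *sGsn-/-*, *sGsn-/- Clec9a-/-* in each. The cDC1 markers summed to 605, 747 and 722 CPM in the *Cd209a* gate, 523, 561 and 645 CPM in the *C1qa* gate and 817, 974 and 934 CPM in the *Ncr1* gate, lowest in WT each time, with *Naaa* or, in the *Ncr1* gate, *Irf8* the most abundant. The cycling markers differed as well. They summed to 129, 207 and 162 CPM in the *Cd209a* gate, 179.8, 304 and 313 CPM in the *C1qa* gate and 604, 635 and 469 CPM in the *Ncr1* gate, with *Top2a* the most abundant in each and no gene at 0. The NK cell markers summed to 158, 252 and 212 CPM in the *Cd209a* gate and 65.0, 127 and 93.2 CPM in the *C1qa* gate, with *Klrk1* the most abundant. In the *Ncr1* gate the macrophage or monocyte markers summed to 283, 181 and 258 CPM, with *Lyz2* the most abundant, and the T cell markers to 86.4, 93.5 and 99.7 CPM. The part of all these in the ratios of the gates was not tested, beyond leaving out barcodes that held a cycling gene, which also takes out deep barcodes (in the *Ncr1* gate of WT 382 of 705 barcodes stayed, with 3477765 of 9928118 UMIs).

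*Hspa1a* and *Hspa1b* kept a close but not fixed proportion. In cDC1s there were 2.43 *Hspa1a* UMIs for each *Hspa1b* UMI in WT (95% interval 2.38 to 2.47), 2.80 in *sGsn-/-* (2.72 to 2.89) and 2.71 in *sGsn-/- Clec9a-/-* (2.62 to 2.81). The proportion was 2.60, 2.83 and 2.73 in the *Cd209a* gate, 2.42, 2.87 and 2.75 in the *C1qa* gate, and 1.82, 2.07 and 2.36 in the *Ncr1* gate. WT has the lowest proportion in each population. How reads that fit both genes were counted is not stated by the study.

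Between cDC1 clusters the inducible chaperones differed more than between libraries. *Hspa1a* was highest in cluster 3 (2193 ± 704 CPM, mean ± SD, n = 3 libraries), followed by clusters 9 (1374 ± 838), 7 (1079.7 ± 489.7), 6 (1028 ± 319) and 2 (979.9 ± 454). It was intermediate in clusters 5 (666 ± 356), 4 (488 ± 168), 8 (486 ± 89.2) and 10 (378 ± 317), and lowest in clusters 0 (278 ± 199) and 1 (269 ± 137). No 2 neighbours in this order differ beyond their spread, but that spread includes the differences between libraries. Within each library cluster 3 stood above cluster 9, as given below. The ends are 8.15-fold apart. Clusters were called on the same counts, so these differences carry no test.

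In single libraries *Hspa1a* in cluster 3 stood at 2949, 2075 and 1555 CPM (WT, *sGsn-/-*, *sGsn-/- Clec9a-/-*), and in cluster 9 at 2332, 1013 and 777 CPM. In cluster 0 it stood at 508, 159 and 166 CPM and in cluster 1 at 382, 308 and 117 CPM. Cluster 3 in its lowest library thus holds more *Hspa1a* than clusters 0 and 1 in their highest.

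*Hspa1b* was highest in cluster 3 as well (818 ± 351 CPM), then in clusters 6 (742 ± 288) and 9 (572 ± 387), and lowest in cluster 1 (87.2 ± 47.6), 9.39-fold below cluster 3. Its values in cluster 3 were 1214, 692 and 548 CPM, and in cluster 6 they were 1066, 644 and 515 CPM. *Hsph1* was highest in clusters 6 (160.4 ± 50.4), 3 (159 ± 54.6) and 9 (152 ± 79.9) and lowest in cluster 1 (34.5 ± 13.2). Clusters 3, 6 and 9 hold the 3 highest means of *Hspa1b* and *Hsph1*.

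The J proteins had another order at the top. *Dnajb1* was highest in cluster 9 (514 ± 258 CPM), followed by cluster 3 (334 ± 98.3), and lowest in cluster 10 (70.8 ± 3.40), 7.26-fold below. *Dnaja1* was highest in cluster 9 (1414 ± 365 CPM), followed by clusters 3 (1328 ± 268) and 7 (1177 ± 184), of which cluster 7 lies above the next, cluster 4 (754 ± 169), beyond the spread. Cluster 9 thus leads for both J proteins and cluster 3 comes second.

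The remaining chaperones were all highest in cluster 3. *Hsp90aa1* ran from 497 ± 67.3 CPM in cluster 1 to 1593 ± 267 CPM in cluster 3 (3.20-fold), and *Hsp90ab1* from 1675 to 2926 CPM (1.75-fold). *Hspa8* ran from 2269 ± 207 CPM in cluster 5 to 4397 ± 289 CPM in cluster 3 (1.94-fold), where it exceeded the next, cluster 7 (3799.5 ± 198), beyond the spread. *Hspe1* ran from 288 ± 49.2 CPM in cluster 6 to 540.1 ± 105 CPM in cluster 3, and *Hspd1* from 126 ± 24.9 CPM in cluster 2 to 240.5 ± 75.5 CPM in cluster 3. Cluster 6, high for *Hspa1b*, *Hsph1* and *Hsp90aa1*, was the lowest of all for *Hspe1*.

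**Figure D3:**
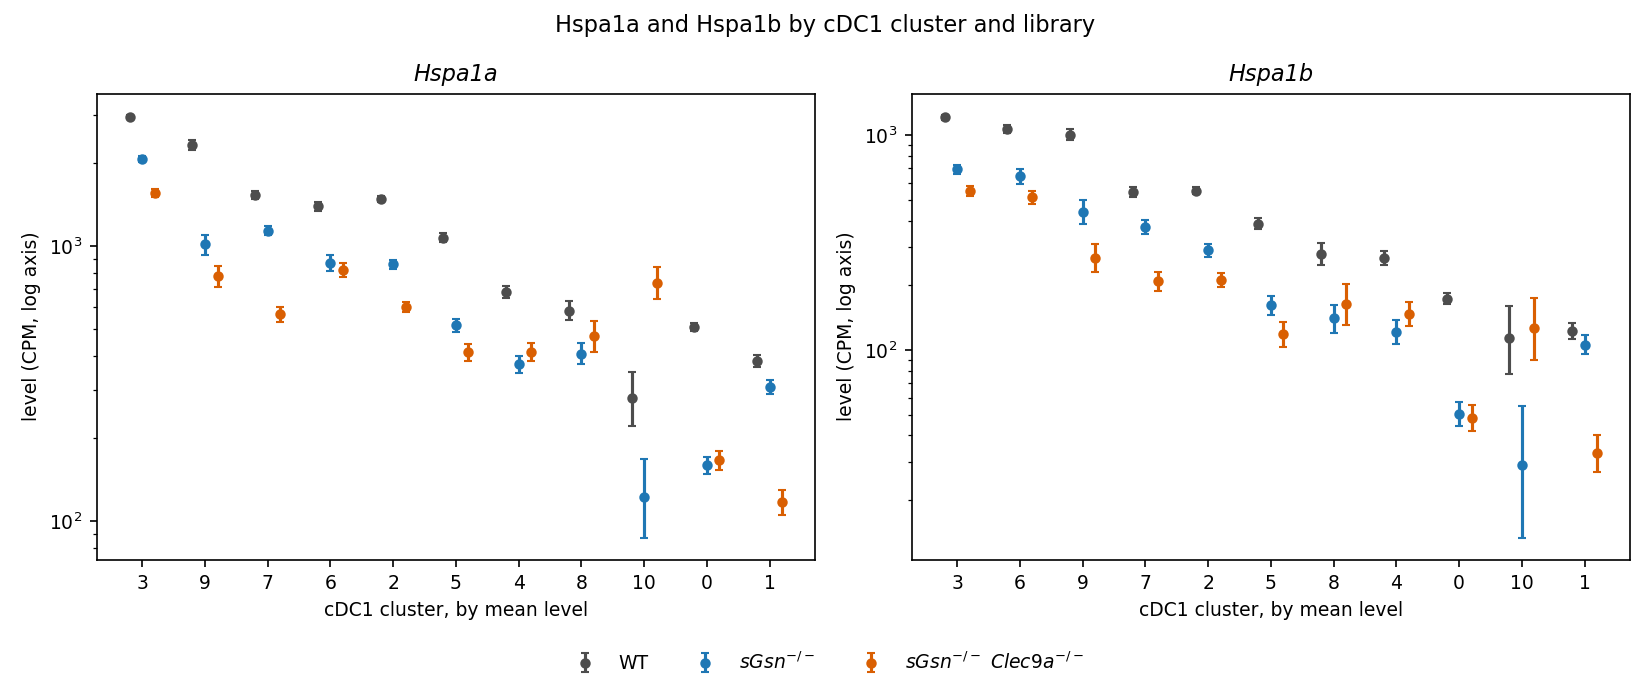
*Hspa1a* and *Hspa1b* in the cDC1 clusters. The y axis gives CPM on a log scale and the x axis the cluster, ordered by mean level; points are the 3 libraries and bars exact 95% Poisson intervals. *Hspa1a* runs from a mean of 2193 CPM in cluster 3 to 269 CPM in cluster 1, and WT is the highest library in all clusters shown but cluster 10.

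Within clusters the WT library was the higher of the first comparison almost throughout. The log2 ratio of *sGsn-/-* to WT for *Hspa1a* ran from −1.67 in cluster 0 to −0.31 in cluster 1 with a median of −0.79 over clusters 0 to 10, and for *Hspa1b* from −1.97 in cluster 10 to −0.21 in cluster 1 with a median of −1.004. *Hspa1a*, *Hspa1b*, *Hspd1* and *Dnaja1* were lower in *sGsn-/-* in each of the 11 clusters, as were 52 of the 2520 genes (2.06%). For *Hspd1* in cluster 3 this is nearly no difference, with a ratio of −0.0007 (−0.13 to 0.13). The other 6 chaperones were lower in 10 of 11, the exception being cluster 1 for *Hsph1* (0.06), *Dnajb1* (0.04), *Hsp90aa1* (0.11), *Hsp90ab1* (0.09) and *Hspe1* (0.02) and cluster 2 for *Hspa8* (0.02). As this ratio in cDC1s chose the genes, these counts describe where it lies and support nothing further.

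The second step was less even across clusters. *Hspa1a* was lower in *sGsn-/- Clec9a-/-* than in *sGsn-/-* in 7 of 11 clusters, from −1.39 in cluster 1 to 2.58 in cluster 10. *Hspa1b* was lower in 8, *Hsph1*, *Hspe1* and *Hspd1* in 8 each, *Hsp90ab1* in 9, *Dnaja1* in 7, *Hsp90aa1* and *Dnajb1* in 6 each and *Hspa8* in 4. In cluster 10 *Hspa1a* stood at 279.9, 122 and 733 CPM, on 21, 27 and 28 cells. Single cells weigh on this: 1 cell held 57.4% of the *Hspa1a* and *Hspa1b* UMIs of cluster 10 in *sGsn-/-* and 1 cell held 19.1% in *sGsn-/- Clec9a-/-*. Together both genes stood there at 393, 151 and 860 CPM. Without the highest cell of each library they stood at 293, 68.7 and 724 CPM, so the order of the libraries stayed.

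Cluster 11, which the study names as likely dying cells, was kept apart. It has 60 cells (19, 29 and 12), with median UMIs of 2004, 2506 and 2478 and median mitochondrial shares of 8.50%, 7.95% and 7.54%. *Hspa1a* stood there at 414, 498 and 103 CPM, on 18, 39 and 3 UMIs. The log2 ratio of *sGsn-/-* to WT was 0.27 (−0.57 to 1.16), an interval that holds 0, and 1 cell held 42.9%, 44.7% and 100% of the *Hspa1a* and *Hspa1b* UMIs in each library, so the libraries cannot be ranked there.

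The spread of each gene over the 33 sums of 11 clusters and 3 libraries was split into a share for cluster, a share for library and a remainder. For *Hspa1a* the cluster held 71.8% and the library 13.3% (8.58% after thinning), for *Hspa1b* 75.7% and 16.1%, and for *Hsph1* 74.4% and 20.1%. *Dnajb1* gave 84.5% and 11.1%, *Dnaja1* 82.0% and 13.9%. A larger share for cluster is usual: the median of the 2405 genes with at least 50 CPM was 85.3%, above the value of each of the 10 chaperones, and 77.6% of these genes had a larger cluster share than *Hspa1a*. The library share holds the ratio that chose the genes, so it is not compared with that of other genes.

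*Hspa8* gave 84.7% for cluster and 5.79% for library (3.25% with cluster 11 included), *Hsp90aa1* 82.8% and 8.12%, and *Hsp90ab1* 65.7% and 17.0% (11.03% for library with TMM factors). *Hspe1* gave 63.2% and 25.05%, and *Hspd1* 39.1% and 41.1%, the only chaperone of the 10 with the larger share for library. With TMM factors *Hspd1* had 44.2% for cluster and 35.1% for library, and *Hspe1* had 14.8% for library, or 14.6% after thinning. With cluster 11 included the library share of *Dnajb1* was 0.0330% and that of *Hspe1* 6.95%.

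Single cells show how uneven these sums are. The median cDC1 held 9.53 *Hspa1a* and *Hspa1b* UMIs together for each 10000 UMIs in WT, 0.846 in *sGsn-/-* and 1.60 in *sGsn-/- Clec9a-/-*, and the upper quartiles were 28.7, 12.5 and 10.4. The tenth of cells with the most held 38.4%, 55.5% and 49.8% of these UMIs, and 19.8%, 41.4% and 39.1% of cDC1s had none. Low cells are thus more frequent in both knockout libraries, and their few high cells hold more of the total. In the gates the tenth of barcodes with the most held 54.1%, 72.0% and 66.6% (*Cd209a*), 56.4%, 62.2% and 65.2% (*C1qa*) and 78.4%, 85.8% and 84.4% (*Ncr1*). The median barcode of the *Ncr1* gate held 0 in each library, so its sums and ratios rest on few barcodes. The counting intervals do not hold this unevenness.

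After thinning each cell to 3900 UMIs, at least 1 UMI of *Hspa1a* was found in 65.8% of WT cDC1s (95% interval 63.8 to 67.7), 43.0% of *sGsn-/-* cDC1s (40.6 to 45.5) and 45.9% of *sGsn-/- Clec9a-/-* cDC1s (43.5 to 48.4), on 2249, 1606 and 1663 cells. In the *Ncr1* gate, the lowest population, it was found in 18.6%, 13.8% and 14.1% on 665, 910 and 661 barcodes. Without thinning the shares were 76.8%, 54.0% and 57.2% in cDC1s and 37.0%, 22.9% and 22.3% in the *Ncr1* gate, whose median UMIs were 11190, 9523 and 7899. Between them lay the *Cd209a* gate, with 46.4%, 33.2% and 31.9% after thinning, and the *C1qa* gate, with 48.1%, 41.5% and 38.9%. In all 4 populations WT has the largest share of barcodes with a UMI of *Hspa1a*. Ambient UMIs were not measured, and WT, the library with the most *Hspa1a*, may hold more of them, so these shares do not count cells that express the gene. *Hspa1b* after thinning was found in 53.3%, 31.7% and 29.8% of cDC1s and in 12.8%, 8.68% and 8.93% of the *Ncr1* gate.

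Over the cDC1s of 1 library that were deep enough for thinning, the levels of the chaperones went together to unequal degrees. These cells share their pool and clusters. Their counts were scaled by the UMIs of each cell but not thinned here, so depth was not made equal. The part of depth in these correlations, within and between libraries, was not tested. *Hspa1a* and *Hspa1b* had the highest correlation of the 45 pairs in each library, 0.864, 0.851 and 0.786. *Hspa1a* with *Hsp90aa1* gave 0.702, 0.691 and 0.613. *Hspa1a* with *Hspd1* gave 0.251, 0.236 and 0.103. The median pair was at 0.466, 0.432 and 0.346, so that *Hspa1a* with *Hsp90aa1* lies above it and *Hspa1a* with *Hspd1* below it in all 3 libraries.

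Over the 33 sums by cluster and library, which share libraries and clusters, the genes outside the 10 whose log2 CPM was most like that of *Hspa1a* and *Hspa1b* together included *Clk1* (Pearson correlation 0.887), *Rsrp1* (0.877), *Klf2* (0.826), *Nufip2* (0.788), *Brd2* (0.779), *Rilpl2* (0.777), *Eloa* (0.772), *Jun* (0.768) and *Rnd3* (0.762). Among the chaperones *Hsp90aa1* gave 0.928, *Hsph1* 0.879, *Hsp90ab1* 0.874, *Dnajb1* 0.845 and *Dnaja1* 0.796. *Hspa8* gave 0.685, *Hspd1* 0.648 and *Hspe1* 0.322. The mitochondrial pair thus had the lowest values of the chaperones. As the sums hold the ratio of *sGsn-/-* to WT that chose the genes, these correlations are a description only.

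Levels between gates were tested over the 3 libraries with edgeR, with the library in the model. The genes were chosen with earlier results of these data known, so the p-values are not independent of that choice. The gates of 1 library share its pool, sort and droplet run. The p-values measure how evenly a difference between gates repeats over the 3 libraries, each of another genotype, and not the spread between pools. *Hspa1a* and *Hspa1b* fell in *Ncr1*-gated against *Cd209a*-gated barcodes. *Hspa1a* was 5.04-fold lower (log2 fold change −2.33 ± 0.09 SE, edgeR adjusted p = 4.6e-09) and *Hspa1b* 3.85-fold lower (−1.94 ± 0.05, edgeR adjusted p = 6.3e-10). Their values in the *Ncr1* gate, given above, lie below those of the *Cd209a* gate in every library. Without the highest doublet scores *Hspa1a* was −2.93 and *Hspa1b* −2.39.

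*Hspa8* also fell (−0.22 ± 0.05, edgeR adjusted p = 0.0014; −0.10 without TMM and −0.34 without barcodes that held cycling genes, adjusted p between 4e-08 and 0.022 over the alternatives). *Dnajb1* fell (−0.31 ± 0.09, edgeR adjusted p = 0.011), but not without TMM (−0.19, 0.057) or without the WT library (−0.19, 0.072), and its adjusted p ran from 2.1e-07 to 0.072 over the alternatives. *Hspa1a*, *Hspa1b*, *Hspa8* and *Dnajb1* are thus the chaperones that passed as lower in the *Ncr1* gate. *Dnajb1* was lower there in WT (100 against 136 CPM) and *sGsn-/-* (90.8 against 105 CPM). In *sGsn-/- Clec9a-/-* it was higher (108 against 102 CPM).

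*Hspd1* rose 2.34-fold in *Ncr1*-gated against *Cd209a*-gated barcodes (1.23 ± 0.06, edgeR adjusted p = 2.3e-08), at 424, 412 and 305 CPM against 161, 149.5 and 136 CPM. *Hspe1* rose with it (0.48 ± 0.04, edgeR adjusted p = 2.8e-06), at 547, 529.9 and 473 CPM against 354, 339 and 333 CPM. *Hsph1* (0.50 ± 0.07, edgeR adjusted p = 9.7e-05) and *Hsp90ab1* (0.34 ± 0.04, edgeR adjusted p = 8.7e-06; 0.17 without barcodes that held cycling genes) rose too. The 2 mitochondrial genes of the set thus go opposite to the inducible Hsp70 genes, in every library.

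*Hsp90aa1* (0.08 ± 0.04, edgeR adjusted p = 0.092) and *Dnaja1* (0.03 ± 0.06, edgeR adjusted p = 0.61) did not pass. *Hsp90aa1* passed without TMM (0.20) and with a gate of at least 5 UMIs (0.16), with adjusted p between 0.00023 and 0.78 over the alternatives, and *Dnaja1* passed without TMM (0.15) and after thinning (0.16), between 0.011 and 0.98. So 4 of the 10 were higher and 4 lower, where 36.9% of the 12716 genes tested were higher and 37.2% lower, and the median log2 fold change was 0.06 over the 10 and 0.01 over all. These counts are near the background. Leaving TMM out shifted all genes by a median of 0.12 in both *Ncr1* comparisons.

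Against the *C1qa* gate the *Ncr1* gate gave a like picture, and the comparison shares its *Ncr1* sums with the one above. *Hspa1a* was 5.47-fold lower (−2.45 ± 0.09, edgeR adjusted p = 2.9e-09) and *Hspa1b* 4.25-fold lower (−2.09 ± 0.05, edgeR adjusted p = 3.1e-10). They were −3.06 and −2.56 without the highest doublet scores. *Hspa8* fell (−0.29 ± 0.05, edgeR adjusted p = 0.00022; −0.17 without TMM and −0.44 without barcodes that held cycling genes, adjusted p from 2.3e-10 to 0.003). *Hspd1* rose 1.90-fold (0.93 ± 0.06, edgeR adjusted p = 1.9e-07), *Hspe1* rose (0.49 ± 0.04, edgeR adjusted p = 2.3e-06) and *Dnaja1* rose (0.25 ± 0.06, edgeR adjusted p = 0.0035; 0.37 after thinning and 0.16 without the *sGsn-/- Clec9a-/-* library, adjusted p from 2e-06 to 0.04). *Hsp90ab1* rose (0.29 ± 0.04, edgeR adjusted p = 3.2e-05), but was 0.07 (0.12) without barcodes that held cycling genes, with adjusted p from 6.6e-08 to 0.12. The inducible Hsp70 genes were again lower and the mitochondrial genes higher.

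*Hsph1* (0.15 ± 0.07, edgeR adjusted p = 0.081), *Dnajb1* (−0.21 ± 0.09, edgeR adjusted p = 0.061) and *Hsp90aa1* (0.01 ± 0.04, edgeR adjusted p = 0.92) did not pass in that comparison. *Hsph1* passed without TMM (0.27), with a gate of at least 5 UMIs (0.31) and without the *sGsn-/- Clec9a-/-* library (0.25), with adjusted p from 0.00075 to 0.96 over the alternatives. *Dnajb1* passed with no filter (−0.26), without the highest doublet scores (−0.29) and without that library (−0.37), from 0.0003 to 0.33. *Hsp90aa1* passed as higher without TMM (0.12) and as lower without barcodes that held cycling genes (−0.21), from 0.0057 to 0.96. So 4 of 10 were higher and 3 lower, beside 37.7% and 36.8% of all genes, with medians of 0.08 and 0.03.

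Between the *C1qa* and *Cd209a* gates the largest log2 fold change of a chaperone was 0.35. *Hsph1* rose in *C1qa*-gated barcodes (0.35 ± 0.07, edgeR adjusted p = 0.0023), at 63.3, 53.4 and 58.9 CPM against 53.8, 43.5 and 41.1 CPM, and *Hspd1* rose (0.30 ± 0.06, edgeR adjusted p = 0.0021). Without the library term *Hsph1* did not pass (0.34, adjusted p = 0.058), and over the alternatives its adjusted p ran from 1.1e-05 to 0.058. *Hspa1b* passed narrowly (0.14 ± 0.05, edgeR adjusted p = 0.035) and did so in 5 of 12 alternatives, not with DESeq2 (0.15, 0.083), no library term (0.13, 0.77), no filter (0.13, 0.085), a gate of 1 UMI (0.08, 0.49) or at least 5 UMIs (0.08, 0.33), or without the *sGsn-/-* (0.13, 0.19) or the *sGsn-/- Clec9a-/-* library (0.10, 0.12), and it was 0.35 without barcodes that held cycling genes; its adjusted p ran from 0.00071 to 0.77. *Dnaja1* fell (−0.21 ± 0.06, edgeR adjusted p = 0.015), but not without the library term (−0.21, 0.1) or the *sGsn-/-* library (−0.24, 0.066), with adjusted p from 0.00022 to 0.1.

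*Hspa1a* (0.12 ± 0.08, edgeR adjusted p = 0.28), *Hspa8* (0.07, 0.26), *Hsp90aa1* (0.08, 0.15), *Hsp90ab1* (0.05, 0.27), *Hspe1* (−0.01, 0.84) and *Dnajb1* (−0.10, 0.4) did not pass edgeR there. After thinning *Hspa1a* (0.23, adjusted p = 0.0059, up to 0.79 over the alternatives) and *Hsp90aa1* (0.12, 0.048, up to 0.62) did. So 3 of 10 were higher and 1 lower, beside 21.9% and 21.4% of all genes, with medians of 0.07 over the 10 and 0.004 over all genes.

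Other chaperone genes were read from lists. In cDC1s 15 of the 36 regulators and co-chaperones of the heat shock response had at least 50 CPM, and 9 of these were below 0 in *sGsn-/-* against WT, where 1163 of all 2520 genes were, with a median of −0.04, from *Ahsa1* (−0.29), an activator of the Hsp90 ATPase, to *Dnaja2* (0.09), a J protein. Of the 8 TRiC/CCT subunits, which form the chaperonin of the cytosol, 1 was below 0 (median 0.03), from *Tcp1* (−0.04) to *Cct6a* (0.14). Of the 13 endoplasmic reticulum chaperones with at least 50 CPM, of 14, 2 were below 0 (median 0.12), from *Dnajb9* (−0.13) to *Manf* (0.22). No gene of these lists with at least 50 CPM was 1.5-fold lower or higher.

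In the step from *sGsn-/-* to *sGsn-/- Clec9a-/-* 13 of 16 regulators and co-chaperones were below 0 in cDC1s (median −0.13), 7 of 8 TRiC/CCT subunits (−0.04) and 12 of 13 endoplasmic reticulum chaperones (−0.16), beside 1784 of 2466 over all genes (−0.07). The summed levels in cDC1s were 5523, 5313 and 5138 CPM for the regulators and co-chaperones, 1312, 1347 and 1290.4 CPM for TRiC/CCT and 4235, 4556 and 4026 CPM for the endoplasmic reticulum. The last list was highest in *sGsn-/-*, the library in which *Hspa1a* stood between the others.

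Between gates the same lists were tested gene by gene. In *Ncr1*-gated against *Cd209a*-gated barcodes 19 of 34 regulators and co-chaperones rose and 7 fell (median 0.23), where 36.9% of all genes tested rose and 37.2% fell, with *Dnaja4* (3.86 ± 0.22, edgeR adjusted p = 6.6e-08) up and *Hmox1*, heme oxygenase (−2.51 ± 0.33, edgeR adjusted p = 5.2e-05), and *Hspb1*, a small heat shock protein (−2.00 ± 0.52, edgeR adjusted p = 0.0055), down. Of the TRiC/CCT subunits 7 of 8 rose (median 0.25), among them *Cct7* (0.53 ± 0.04, edgeR adjusted p = 6.9e-07), *Cct3* (0.47 ± 0.04) and *Cct6a* (0.28 ± 0.05). Of the 14 endoplasmic reticulum chaperones 8 fell and none rose (median −0.18), among them *Pdia6* (−0.49 ± 0.04, edgeR adjusted p = 1.2e-06), *Dnajb9* (−0.37 ± 0.06) and *Calr* (−0.33 ± 0.04). Most TRiC/CCT subunits thus rose, as *Hspd1* and *Hspe1* did, while 6 of the 14 endoplasmic reticulum chaperones did not pass in either direction.

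Against the *C1qa* gate 20 of 34 regulators and co-chaperones rose and 7 fell (median 0.20), beside 37.7% and 36.8% of all genes, with *Hmox1* (−4.53 ± 0.29, edgeR adjusted p = 1.8e-07) and *Hspb1* (−3.48 ± 0.46) down and *Dnaja4* (4.04 ± 0.24) up. Again 7 of 8 TRiC/CCT subunits rose (median 0.32), with *Cct7* at 0.58 ± 0.04 (edgeR adjusted p = 3.3e-07), and 10 of 14 endoplasmic reticulum chaperones fell (median −0.22), with *Pdia6* at −0.58 ± 0.04 (edgeR adjusted p = 3.3e-07). In *C1qa*-gated against *Cd209a*-gated barcodes 10 of 34 regulators and co-chaperones rose and 2 fell (median 0.06), beside 21.9% and 21.4% of all genes, with *Hmox1* (2.02 ± 0.19, edgeR adjusted p = 1.6e-05) and *Hspb1* (1.48 ± 0.31) up and *Dnajc7* (−0.71 ± 0.06) down. There 1 of 8 TRiC/CCT subunits fell, *Cct5* (−0.15 ± 0.04, edgeR adjusted p = 0.011; list median −0.03), and 5 of 14 endoplasmic reticulum chaperones rose, among them *Pdia4* (0.27 ± 0.06, edgeR adjusted p = 0.0029; list median 0.10).

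The gates, each set on 1 marker, differ in the other markers and in cycling genes, and the shares of all genes given above apply to these counts too. In *Ncr1*-gated against *Cd209a*-gated barcodes 7 of 7 NK cell markers rose (median 6.27) and 5 of 5 cDC2 and 7 of 7 macrophage or monocyte markers fell, the genes of the gates left out. There 3 of 4 T cell markers and 3 of 3 cycling markers rose (median 1.71), and 5 of 7 cDC1 markers fell while *Irf8* rose (1.76 ± 0.08, edgeR adjusted p = 1.5e-08). In *C1qa*-gated against *Cd209a*-gated barcodes 7 of 7 macrophage or monocyte markers (median 3.50) and 3 of 3 cycling markers rose (0.64), 3 of 5 cDC2 markers fell and 2 rose, and 3 of 7 cDC1, 2 of 7 NK cell and 3 of 4 T cell markers fell, again without the genes of the gates. Without barcodes that held cycling genes *Hspd1* was 0.996 and *Hspe1* 0.35 in *Ncr1*-gated against *Cd209a*-gated barcodes. As this takes out deep barcodes too, the part of cycling is not told apart from that of depth.

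The genes lie on 7 chromosomes of GRCm38. *Hspa1a* (ENSMUSG00000091971, chr17:34969190-34972156) and *Hspa1b* (ENSMUSG00000090877, chr17:34956436-34959238) lie in tandem on the minus strand, 9951 bases apart, with *Hspa1a* overlapping *Gm20481*. Their transcripts, of 2967 and 2803 bases, are 86.8% identical, but none of the 90-base windows in the last 500 bases of either occurs in the other. *Hspd1* (ENSMUSG00000025980, chr1:55077835-55088243, minus) and *Hspe1* (ENSMUSG00000073676, chr1:55088132-55091307, plus) lie head to head and overlap at their starts.

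*Hsp90ab1* (ENSMUSG00000023944, chr17:45567775-45573271, minus) is on the chromosome of *Hspa1a*, and *Hsp90aa1* (ENSMUSG00000021270, chr12:110690605-110702728, minus) is not. *Hsph1* is ENSMUSG00000029657 (chr5:149614287-149636376, minus) and *Dnajb1* is ENSMUSG00000005483 (chr8:83608193-83612653, plus). *Hspa8* (ENSMUSG00000015656, chr9:40800984-40810087, plus) holds *Snord14c*, *Snord14d* and *Snord14e*. *Dnaja1* (ENSMUSG00000028410, chr4:40722150-40737149, plus) overlaps *Gm6297*, *Mir207* and *Smu1*. Whether reads in these overlaps were counted for the chaperone is not stated by the study.

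Promoters from RefSeq (GRCm38.p6) were found for 7 of the 10 genes, and *Hspa8*, *Hsp90aa1* and *Hsp90ab1* had none in the table. HSF1 is known to bind repeats of the unit GAA in alternating direction, so the letters GAANNTTC, TTCNNGAA and the longer GAANNTTCNNGAA, which overlaps both, were sought on both strands of the 250 bases before each gene start. The shorter ones read the same on either strand. The starts are those of RefSeq, and some lie inside the genes as placed above, so the windows can hold exon bases. All 250 bases lay in exons in the *Hspe1* window and 1 *Hspd1* window, 245 in 1 *Dnajb1* window and 218 in 1 *Dnaja1* window. The *Hsph1* windows held 40 and 61 exon bases and those of *Hspa1a* and *Hspa1b* 0. GAANNTTC was in 5 of the 12 windows of the chaperones and 6.69% of all 32851 windows, TTCNNGAA in 4 and 7.17%, and GAANNTTCNNGAA in 2 and 0.466%. Either of the shorter motifs was in 7 of the 12 windows, from 6 of the 7 genes, and in 12.8% of all windows. Windows overlap, however: 1 window of *Hspd1* and that of *Hspe1* share the same matches, and so do both windows of *Hsph1*. With overlapping windows joined, the chaperones have 9 stretches, of which 4 held GAANNTTC, 2 TTCNNGAA, 1 GAANNTTCNNGAA and 5 either of the shorter motifs, beside 6.97%, 7.41%, 0.464% and 13.3% of all 29335 stretches. A match describes the letters and shows no binding. The 250 bases before *Hspa1a* and *Hspa1b*, the pair with the largest ratio between libraries, differ at 3 bases, and each holds GAANNTTC once, 104 bases before the start. They are shown on the minus strand of chr17:34972157-34972406 and chr17:34959239-34959488 (GRCm38.p6), 5′ to 3′, with the motif in capitals:
Hspa1a: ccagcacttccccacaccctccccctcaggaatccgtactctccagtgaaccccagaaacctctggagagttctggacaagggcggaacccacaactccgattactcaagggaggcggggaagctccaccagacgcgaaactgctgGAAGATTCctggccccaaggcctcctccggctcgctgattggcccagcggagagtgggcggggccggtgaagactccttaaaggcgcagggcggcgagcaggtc
Hspa1b: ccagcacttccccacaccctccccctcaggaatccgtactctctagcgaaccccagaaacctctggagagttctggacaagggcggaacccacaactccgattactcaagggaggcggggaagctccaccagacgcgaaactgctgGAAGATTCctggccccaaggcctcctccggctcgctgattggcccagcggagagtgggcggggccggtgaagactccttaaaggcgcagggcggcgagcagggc

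*Hspe1* and *Hsph1*, a mitochondrial and a cytosolic chaperone whose library ratios differ, are shown for their motifs over 30 bases each (RefSeq, GRCm38.p6), with capitals on the matched letters. By the positions given above, the matched letters of *Hsph1* lie inside *Hsph1* and those of *Hspe1* inside *Hspd1*. The *Hspe1* stretch is on the plus strand at chr1:55088053-55088082 and the *Hsph1* stretch on the minus strand at chr5:149636351-149636380:
Hspe1: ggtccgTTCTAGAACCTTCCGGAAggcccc
Hsph1: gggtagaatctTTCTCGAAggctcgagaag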

How the data were processed

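The matrices deposited by the authors give UMI counts of each gene in each barcode, from Cell Ranger (version not given) on mm10, without normalisation. Their deposited table lists 5806 cDC1s with UMI counts and, as other entries, the library and the cluster called with Seurat; its UMI counts equalled the matrix sums in 4559 cells and differed by at most 34. The chaperones and all gene lists were chosen with earlier results of these data known. Of 30209 barcodes, 23138 outside the table were kept, with at least 200 genes and a mitochondrial share up to 17.513%, the mean plus 2 SD, and 11820 of these fell in a gate. UMIs were summed by library and population, cluster or gate, as CPM. Levels carry exact Poisson and ratios exact conditional binomial 95% intervals, for counting error alone. Genes with at least 50 CPM in either library entered ratios, with a fold of 1.5. The 33 sums were split by an additive fit of log2 CPM with 0.5 CPM added.

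Between gates, 9 sums of 12716 genes entered the quasi-likelihood F-tests of edgeR 4.0.16 (R 4.3.3) with the library as a term, after filterByExpr and TMM, and p-values were adjusted by Benjamini-Hochberg (threshold 0.05). With the gates paired by library, deviations from the gate means correlated at 0.107 to 0.391 over the libraries; without that pairing *Hspa1a* in *Ncr1*-gated against *Cd209a*-gated barcodes was a log2 fold change of −2.37. Doublets were kept in the main values, and the 6% of barcodes with the highest Scrublet scores (766, 490 and 556) were left out as an alternative. Other alternatives were DESeq2 1.42.0, no TMM or TMM or DESeq2 size factors for ratios, no filter, other gates, thinning to 3900 UMIs, equal weight of the 12 clusters, cluster 11 in or out, sex of the cells, mitochondrial share, barcodes with cycling genes, mean over cells, and each library left out. All 10 chaperones are named; from each list (regulators and co-chaperones, TRiC/CCT, endoplasmic reticulum, immediate early genes, markers of cDC1s, cDC2s, macrophages or monocytes, NK cells, T cells, cycling cells and stroma) the largest and smallest ratio in cDC1s and the 3 largest calls between gates, and genes most like *Hspa1a* and *Hspa1b*. Python 3.11.15, numpy 2.4.6, scipy 1.17.1, pandas 2.3.3, scanpy 1.11.5 and matplotlib 3.10.9 were used.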

Additional observations from a re-analysis of the deposited data

Results flagged for a closer look

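In 4 cases the ratio of a chaperone between 2 libraries had opposite signs in a gate and in cDC1s, with neither 95% counting interval holding 0. Each value rests on 1 library for each genotype, and the differences between populations were not tested. *Hspa8* in *sGsn-/-* against WT had a log2 ratio of 0.053 (0.03 to 0.08) in the *Ncr1* gate and −0.19 (−0.21 to −0.18) in cDC1s, and the gate value turned to −0.06 without barcodes that held cycling genes. *Hsp90ab1* in the same comparison had 0.033 (0.01 to 0.05) in the *C1qa* gate and −0.20 (−0.22 to −0.19) in cDC1s, and the gate value turned to −0.0065 with a gate of 1 UMI. *Dnajb1* in *sGsn-/- Clec9a-/-* against *sGsn-/-* had 0.25 (0.12 to 0.38) in the *Ncr1* gate and −0.12 (−0.19 to −0.04) in cDC1s, where it turned to 0.03 in cells with *Xist* and no Y-linked UMIs. *Dnaja1* in that step had 0.055 (0.01 to 0.10) in the *Ncr1* gate and −0.08 (−0.11 to −0.04) in cDC1s, where it was −0.00011 with TMM factors, below 0 still but with nearly no size.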

How the results depend on the processing

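In cDC1s all 10 chaperones kept the direction of the *sGsn-/-* to WT ratio in the 11 alternatives, and 4 were at least 1.5-fold lower in each. The log2 ratio of *Hspa1a* was −0.96 in cells with *Xist* and no Y-linked UMIs, −0.79 in cells up to the median mitochondrial share, −0.71 with clusters weighted equally and −0.87 both after thinning and as a mean over cells. *Hspa1b* was −1.14 in cells with *Xist* and no Y-linked UMIs, −0.88 with clusters weighted equally and −0.96 after thinning. Outside the table the count of chaperones 1.5-fold lower over the gates was 5 without barcodes that held cycling genes, against 3, and which of *Hspa1a* and *Hspa1b* passed in a gate changed with the gate, thinning and doublet scores. Leaving out barcodes with cycling genes also takes out deep ones. The cause was not tested.

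Of 360 values of chaperones between gates under an alternative 320 kept their call and direction, 13 gained and 13 lost a call, and 14 reversed. *Hspe1* in *C1qa* against *Cd209a* was 0.028 without barcodes that held cycling genes and ran from −0.040 to 0.010 with 1 library left out. *Hsp90aa1* in *Ncr1* against *Cd209a* was −0.083 without cycling barcodes. *Dnaja1* in *Ncr1* against *Cd209a* was −0.030 with no filter and −0.014 with at least 5 UMIs, and ran from −0.051 to 0.10 with 1 library left out. *Hsph1* in *Ncr1* against *C1qa* was −0.0050 without cycling barcodes. *Hsp90aa1* in *Ncr1* against *C1qa* was −0.011 with DESeq2, −0.043 with no filter, −0.019 with a gate of 1 UMI, −0.063 after thinning and −0.21 without cycling barcodes, and ran from −0.049 to 0.00986 with 1 library left out. The cause was not tested. The counts of genes past the threshold stayed within 1.5 times in all 36 alternatives. With no replicate block (no library term) *Hspa1a* in *Ncr1* against *Cd209a* was −2.37.

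Each genotype is 1 library, so no ratio between genotypes can be tested, and genotype cannot be told apart from pool, sort and library. Depth limits the *Ncr1* gate most, where *Hspa1b* had 704, 595 and 316 UMIs. Gates rest on 1 gene each and leave out barcodes with fewer UMIs of it.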

Other observations

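Immediate early genes, which follow stimulation and handling of cells, were read beside the chaperones. In cDC1s 15 of 19 were below 0 in *sGsn-/-* against WT, as were 1163 of all 2520 genes (list median log2 ratio −0.14), from *Dusp1*, a phosphatase of MAP kinases (−0.41; 740.1, 556 and 718 CPM in WT, *sGsn-/-* and *sGsn-/- Clec9a-/-*), to *Junb* (0.05). Outside cDC1s the direction differed: 4 of 19 were below 0 in the *Cd209a* gate (median 0.06), 1 of 19 in the *C1qa* gate (0.16) and 5 of 18 in the *Ncr1* gate (0.08), beside 1066 of 2696, 1314 of 2671 and 1315 of 2692 over all genes, while *Hspa1a* and *Hspa1b* were below 0 in all of them. From *sGsn-/-* to *sGsn-/- Clec9a-/-* 3 of 19 were below 0 in cDC1s (median 0.10), 7 of 19 in the *Cd209a* gate (0.01), 15 of 19 in the *C1qa* gate (−0.06) and 1 of 18 in the *Ncr1* gate (0.23). Over all genes 1784 of 2466, 1812 of 2689, 1594 of 2657 and 1761 of 2675 were below 0 in that step. The list summed to 16414, 15037 and 15819 CPM in cDC1s, 12773, 13308 and 13516 CPM in the *Cd209a* gate, 11629.7, 13374 and 12613 CPM in the *C1qa* gate and 5135, 5577 and 6630.4 CPM in the *Ncr1* gate.

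Between gates immediate early genes were lowest in *Ncr1*-gated barcodes. Of 19 genes 18 fell against the *Cd209a* gate (median −1.27), where 37.2% of all genes did, among them *Ier3* (−3.52 ± 0.08 SE, edgeR adjusted p = 1.7e-10), *Atf3* (−2.79 ± 0.11) and *Zfp36* (−2.37 ± 0.11). Against the *C1qa* gate 17 fell and 1 rose (median −1.09), beside 36.8% and 37.7% of all genes, with *Ier3* at −4.33 ± 0.08 (edgeR adjusted p = 4.1e-11) and *Klf4* at −2.68 ± 0.06. In *C1qa*-gated against *Cd209a*-gated barcodes 3 rose, among them *Ier3* (0.82 ± 0.06, edgeR adjusted p = 2.9e-06), and 5 fell, among them *Ier2* (−0.60 ± 0.06, edgeR adjusted p = 2.1e-05) and *Btg2* (−0.46 ± 0.07), with a median of −0.10; both counts are near the 21.9% and 21.4% of all genes.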
